A study of Drosophila melanogaster with 27 samples.

Results

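Eye-antennal discs of larvae homozygous for hh1, an allele of the signalling gene hedgehog, were measured on 4 two-colour glass arrays of the 27 in the study, chosen by their titles. These discs are the epithelial sacs of the larval head that form the adult eye and antenna. On each array the test RNA came from whole hh1 discs of third-instar larvae, and the other dye carried a common reference of whole eye-antennal discs from an isogenized w1118 stock, which lacks eye pigment but forms normal eyes. The other 8 conditions were ato1 homozygotes, roDom homozygotes and E(roDom)2033 homozygotes (3 arrays each), heterozygotes of roDom and of E(roDom)2033 (2 each), roX63 and Su(roDom)519 (3 each), and fragments of w1118 eye discs from behind the furrow (4). The series description groups hh1 with ato1, roDom and E(roDom)2033 as genotypes whose furrow stops early and which form fewer photoreceptors. All these larvae were at instar 3. Test RNA came from few discs and went through 2 rounds of linear amplification, while the reference went through 1 round. No source states how many larvae went into an array or whether replicates came from separate collections, so the p-values measure only the spread between these arrays, which may be technical. The reference counts as 1 control sample. A ratio tested against 0 therefore leaves out the spread of the control and holds any effect of the extra amplification round.

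The eye disc differentiates in a wave. An indentation called the morphogenetic furrow crosses it from posterior to anterior, and photoreceptor clusters form behind it. Hedgehog protein secreted by the differentiating photoreceptors binds Patched in the cells ahead, which frees Smoothened, stabilises the activator form of Cubitus interruptus and switches on dpp and the proneural gene ato, so that the furrow moves on. The hh1 allele is viable and is known for its eye defect, in which the furrow halts partway and leaves rows of photoreceptors behind it.

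All values are log2 ratios of hh1 over reference, or differences of such ratios, so 1 is a 2-fold change. A change is called at an adjusted p under 0.05 in limma, with Benjamini-Hochberg adjustment over 16492 probes, and is given as the fitted value ± SE. A gene with several probes is represented by its brightest one. Replicates 1, 2 and 3 carried the hh1 RNA in Cy3 and replicate 4 in Cy5, and the fit has a dye term. Replicate 1 stands apart in quality: 66.3% of its probes were above background in a channel, against 84.7% to 93.1% on the other 3 arrays, and it was printed in the 5th array series and scanned on a day of its own. Across probes its ratios correlated with those of replicates 2, 3 and 4 at r = 0.11, 0.37 and 0.13. Among the other 3 hh1 arrays r ran from 0.15 to 0.54. In all, 696 of 11554 genes (6.02%) were called in hh1 discs against the reference, 355 higher (3.07%) and 341 lower (2.95%), with a median of 0.01 over all genes. Without replicate 4 the number of called probes was 429 and without replicate 2 it was 521, against 884 of 16492 with all arrays (5.36%). The scanner header of replicate 3 names its sample hha, where the other 3 headers begin that name with hh1. The label was followed, and without replicate 3 the number of called probes was 734.

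The mutated gene itself was low. The ratio of hh was -0.84, -0.99, -1.68 and -1.03 in hh1 replicates 1 to 4. All 4 arrays lay below the reference, with replicate 3 the lowest. The fitted change was -1.16 ± 0.17 (adjusted p = 0.000211), with no call in a fit on the hh1 arrays alone. Most other genes lost their call in that fit too, which kept 14 of 73 called genes examined. Low hh RNA was not shown to be particular to the hh1 allele. The 9 arrays of the other stop-furrow genotypes ran from -1.25 through a median of -0.86 to -0.47 and overlapped the hh1 arrays. The difference was -0.32 ± 0.20 (adjusted p = 0.544), and against the mean of the other 8 conditions it was -0.52 (adjusted p = 0.178). In w1118 fragments from behind the furrow, where hh is normally transcribed, the ratio ran from 0.14 to 1.06. These are bulk samples, in which fewer cells of a type and less RNA per cell cannot be told apart. None of the 10 measured genes nearest to hh on chromosome arm 3R was called in limma. At an unadjusted p under 0.05 were 3 of them, beside 3258 of all 16492 probes. Of the nearest 100 genes 3 were called, beside 6.02% of all genes.

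Of 22 measured Hedgehog pathway genes 3 were called in limma, hh among them, beside 6.02% of all genes. Of 10 measured genes of signal production and reception only hh itself was called, and the list had a median of -0.14. The receptor gene ptc, a standard Hedgehog target, had ratios of 0.11, -0.29, -0.33 and -0.40, and its fitted value of -0.17 ± 0.13 did not pass (adjusted p = 0.504). The signal transducer smo stood at -0.15 ± 0.10 (adjusted p = 0.449). Of the coreceptors, ihog had 0.66 ± 0.22 (adjusted p = 0.0789) and boi -0.13 ± 0.08 (adjusted p = 0.375). The others were rasp (0.30), an acyltransferase that lipidates the ligand, disp (-0.40), which releases it, shf (0.28), a secreted factor for its spread, and the glypicans dally (-0.15) and dlp (0.13).

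Beside 2.95% of all genes called lower, 2 of 12 measured genes of signal transduction fell and none rose, with a list median of -0.12. They were Gprk2, a kinase that acts on Smoothened (-0.66 ± 0.19, adjusted p = 0.0470), and sgg, the GSK3 kinase that marks Cubitus interruptus for processing (-0.31 ± 0.07, adjusted p = 0.00885). Gprk2 lost its call when any 1 hh1 array was left out (-0.73 to -0.58), and sgg did without replicate 4 (-0.24, adjusted p = 0.143) and with scanning day as a block (-0.21, adjusted p = 0.518). The transcription factor gene ci split by array, at 0.39, 0.52, -0.12 and -0.62. The fitted value was -0.02 ± 0.28 (adjusted p = 0.983). No call was made for cos (0.04) and fu (-0.20), a kinesin-like scaffold and its partner kinase, for Su(fu) (0.08), which holds Cubitus interruptus in the cytoplasm, or for the kinases Pka-C1 (-0.20), gish (-0.18) and CkIalpha (-0.13). The same holds for the kinase subunit Pka-R1 (0.18) and the ubiquitin-ligase subunits slmb (0.17) and rdx (-0.12). Su(fu) was above background on only 1 of 4 arrays. In the difference from the other stop-furrow genotypes none of these 22 genes passed in limma, with 2 at an unadjusted p under 0.05. Of all 16492 probes 2109 were at that level there.

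Most genes of the furrow itself did not pass the test. The BMP ligand gene dpp had ratios of -0.27, -0.10, 0.03 and -0.11, with a fitted value of -0.14 ± 0.12 (adjusted p = 0.565). The proneural gene ato had -0.45, -0.14, -0.41 and -0.10, all below the reference, and -0.26 ± 0.10 (adjusted p = 0.128) did not pass. Of 14 measured furrow and proneural genes 2 fell and none rose, with a median of -0.36, beside 2.95% of all genes called lower. The Cdc25 phosphatase gene stg, which is transcribed in a band at the furrow and drives cells into mitosis, had -0.67, -0.86, -0.91 and -1.94. Each array was below the reference and replicate 4 was the lowest by about 1 log2 unit. The fitted change was -1.22 ± 0.20 (adjusted p = 0.000776), and its difference from the other stop-furrow genotypes was 0.10 (adjusted p = 0.913). With scanning day as a block the change of stg was -1.06 (adjusted p = 0.0553). The other gene was rho, an intramembrane protease that activates the EGFR ligand Spitz (-0.75 ± 0.21, adjusted p = 0.0425), which lost its call when any 1 hh1 array was left out (-0.88 to -0.55). Values below the reference that did not pass included sca (-0.23, adjusted p = 0.0672), hry (-0.92, adjusted p = 0.137), emc (-0.63), Fas2 (-0.74, adjusted p = 0.0664) and Brd (-0.74). Of 13 Dpp pathway genes only the receptor gene sax fell (-0.60 ± 0.16, adjusted p = 0.0278, lost without any 1 hh1 array and with the day block), and of 16 Wingless pathway genes only Apc did (-1.08).

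**Figure D1:**
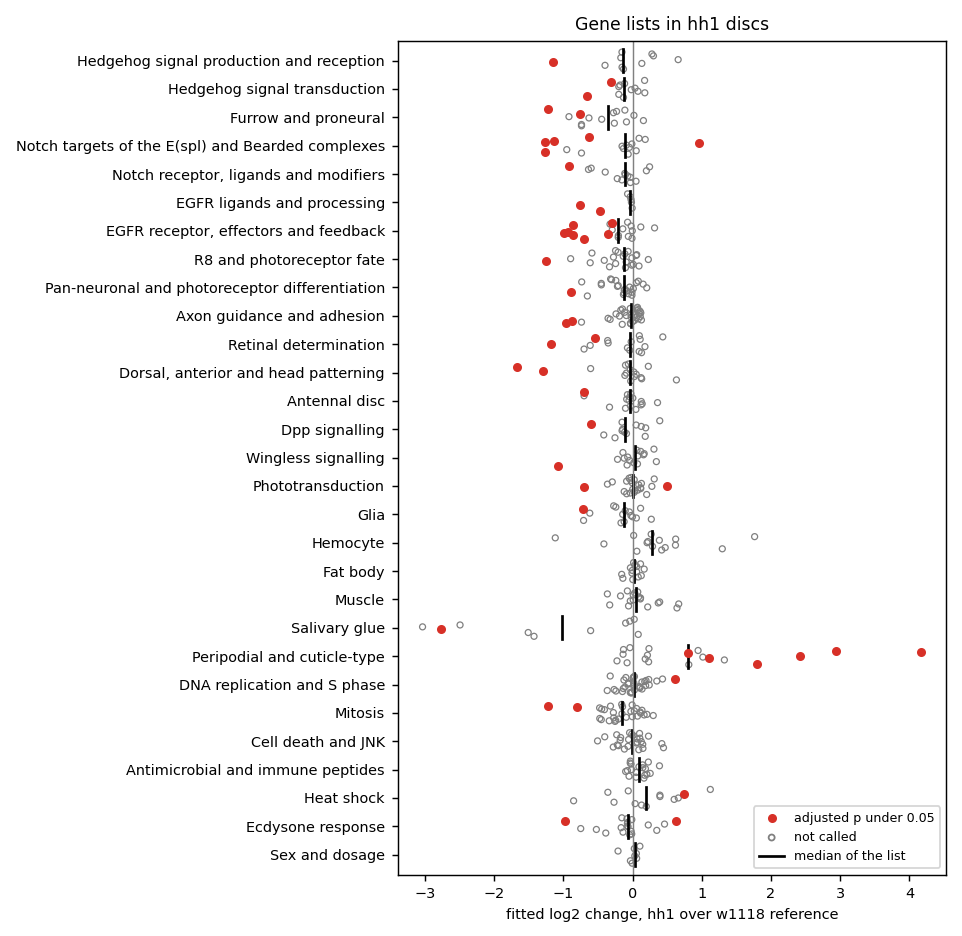
Fitted log2 change of hh1 over the w1118 reference (horizontal axis) for the members of 29 gene lists, 1 list per row. Filled red points passed an adjusted p of 0.05, open grey points did not, and the black bar is the median of the list. Called members sit mainly left of 0 in the Notch, EGFR and furrow lists, and 6 of 19 members were called right of 0 in the peripodial and cuticle-type list. The lists were chosen with earlier results of these data known.

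Targets of Notch changed in both directions. Of 16 measured genes of the E(spl) and Bearded complexes 4 fell and 1 rose in hh1 discs, and the median of the list was -0.11. Of all genes 2.95% were called lower and 3.07% higher. E(spl)mdelta-HLH, a bHLH repressor gene, had ratios of -0.61, -1.77, -1.24 and -1.61. Replicate 1 was nearest to 0, and the change was -1.26 ± 0.17 (adjusted p = 0.000117). Its neighbour E(spl)mgamma-HLH had -0.91, -0.82, -1.70 and -1.20 and changed by -1.14 ± 0.22 (adjusted p = 0.00301), or -1.34 (adjusted p = 0.077) with scanning day as a block. The Bearded-family gene E(spl)m2-BFM had -1.40, -1.24, -1.95 and -0.73 and changed by -1.27 ± 0.14 (adjusted p = 1.25e-05). Each of these 3 genes lay below the reference on every hh1 array. Tom, another Bearded-family gene, fell by 0.63 (adjusted p = 0.0135), without replicate 2 at -0.57 (adjusted p = 0.0821) and without replicate 3 at -0.58 (adjusted p = 0.0652). With the day block Tom had -0.87 (adjusted p = 0.0704). E(spl)mbeta-HLH, another bHLH repressor gene, rose, with 0.48, 1.27, 0.50 and 1.22 and a change of 0.97 ± 0.16 (adjusted p = 0.000782). The other members were not called, among them E(spl)m4-BFM with 0.40, -1.49, -1.27 and -1.65, where replicate 1 had the opposite sign to the other 3 arrays.

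EGFR signalling recruits the photoreceptors that join after the founder R8. Of 19 measured receptor, effector and feedback genes 7 fell and none rose, with a median of -0.21, beside 2.95% of all genes called lower. The secreted inhibitor aos, a feedback target, had -0.59, -0.69, -1.12 and -1.07. All 4 arrays were low, and the change was -0.93 ± 0.14 (adjusted p = 0.000392). The ETS factor genes aop (-0.99 ± 0.25, adjusted p = 0.0236) and pnt (-0.86 ± 0.23, adjusted p = 0.0269) and the GTPase-activating RasGAP1 (-0.87 ± 0.16, adjusted p = 0.00274) fell too. So did the ubiquitin ligase Cbl (-0.70), the exchange factor Sos (-0.35) and the feedback inhibitor sty (-0.29, adjusted p = 0.0395). Leaving out any 1 hh1 array ended the call of aop (-1.06 to -0.93). The call of pnt ended without replicate 1, 3 or 4 (-0.86 to -0.76), and that of RasGAP1 without replicate 4 (-0.66, adjusted p = 0.0684). Among ligands and their processing, 2 of 7 genes fell, rho and S (-0.48 ± 0.08, with the day block -0.47 and adjusted p = 0.137), which encodes the Spitz transporter Star, and the ligand gene spi itself stood at -0.02. In the list of Notch receptor and ligand genes, 1 of 14 fell: neur, a ubiquitin ligase that activates Delta (-0.91), without replicate 2 at -0.81 (adjusted p = 0.0696) and without replicate 4 at -0.92 (adjusted p = 0.0668).

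Most photoreceptor and neuronal genes were not called in hh1 discs against the reference. Beside this list and those that follow, 2.95% of all genes were called lower and 3.07% higher. Of 24 pan-neuronal and photoreceptor differentiation genes 1 fell and none rose, with a median of -0.12. The gene that fell was Nrt, the adhesion molecule neurotactin, with -0.64, -0.94, -0.63 and -1.29 and a change of -0.89 ± 0.22 (adjusted p = 0.0199). Without replicate 2 its adjusted p was 0.0821 and without replicate 4 it was 0.184. With the day block Nrt had -1.11 (adjusted p = 0.102). The neuronal RNA-binding gene elav had -0.28, -0.50, -0.51 and -0.49, and -0.45 ± 0.22 did not pass (adjusted p = 0.261). The photoreceptor surface protein gene chp had -0.36, -0.25, 0.37 and -0.38, on both sides of 0, and -0.22 ± 0.24 did not pass (adjusted p = 0.698). Of 22 R8 and photoreceptor fate genes only lz fell, a Runx factor gene of the cells that join late (-0.98, -1.20, -0.91 and -1.57, -1.26 ± 0.21, adjusted p = 0.000733). With scanning day as a block lz had -1.37 (adjusted p = 0.0811). The R8 genes sens (-0.11, adjusted p = 0.578) and boss (-0.01, adjusted p = 0.949) were not called. Of 24 phototransduction genes 1 rose, the scaffold gene inaD (0.50), and 1 fell, Xport-A, a chaperone gene for rhodopsin and the TRP channel (-0.71). The change of inaD was 0.39 without replicate 4 (adjusted p = 0.0878) and 0.09 with scanning day as a block (adjusted p = 0.82).

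Some photoreceptor genes did differ between hh1 and the other stop-furrow genotypes. Setting the 4 hh1 arrays against the 9 of ato1, roDom homozygotes and E(roDom)2033 homozygotes called 242 genes (2.09%), 154 higher (1.33%) and 88 lower (0.762%) in hh1, from 295 probes (1.79%), with a median of 0.00 over all genes. This comparison uses the same hh1 arrays and the same reference as the first one, and the reference cancels in it. Among the 10 named genes higher in hh1 were Notch-target, EGFR and neuronal genes that were lower in those 3 genotypes. The genes named from this comparison were picked by the size of the difference, so a lack of overlap between their arrays is no separate result. Of the 24 pan-neuronal and photoreceptor genes 5 were higher and none lower in hh1 (chp, Nrt, Ank2, scrt and nrv3), with a list median of 0.06.

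Among Notch targets, E(spl)mgamma-HLH was at -1.70 to -0.82 in hh1, against -4.76 to -3.96 in ato1, -4.07 to -3.19 in E(roDom)2033 homozygotes and -2.55 to -2.03 in roDom homozygotes. The hh1 arrays were above all 9 others, and roDom homozygotes were the nearest. The difference was 2.36 ± 0.26 (adjusted p = 1.35e-05), and within the 2 scanning days that hold hh1 and other stop-furrow arrays it was 1.58 and 3.20. The first of these days sets hh1 replicate 3 against 1 E(roDom)2033 homozygote array, and the other sets replicates 2 and 4 against 2 E(roDom)2033 homozygote arrays and 1 of ato1. Neither day holds a roDom homozygote array, so the within-day values leave out the genotype nearest to hh1. E(spl)mdelta-HLH was also higher in hh1, by 1.14 ± 0.21 (adjusted p = 0.00383), but its hh1 arrays overlapped those of roDom homozygotes (-1.74 to -1.17). E(spl)m2-BFM went the other way: the hh1 arrays (-1.95 to -0.73) lay below all 9 others (-0.70 to 0.18), with a difference of -0.999 ± 0.17 (adjusted p = 0.00268). Without the pair of arrays high in hemocyte transcripts described below it was -0.79 (adjusted p = 0.0794).

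The rhomboid protease gene ru, which acts with rho in Spitz processing, was near the reference in hh1 at -0.44, 0.48, -0.59 and 0.50. In the other stop-furrow genotypes its lowest ratio was -3.35, the median -2.52 and the highest -1.06, so that the groups did not overlap. The difference was 2.38 ± 0.27 (adjusted p = 2.4e-05), and 2.74 and 2.95 within the shared scanning days. For rho the difference was 1.04 ± 0.25 (adjusted p = 0.0347) with overlapping arrays, and it lost its call without replicate 2, 3 or 4 (0.92 to 1.01). The feedback gene aos was higher by 0.75 (adjusted p = 0.0225), lost without replicate 1, 2 or 4 (0.68 to 0.75).

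Of the 5 neuronal genes higher in hh1, 4 are given here. The ratio of chp in hh1 was -0.38 to 0.37, against -3.55 to -2.90 in ato1, -3.11 to -2.37 in E(roDom)2033 homozygotes and -1.12 to -0.34 in roDom homozygotes. Its hh1 arrays overlapped those of roDom homozygotes and lay far above the other 6. The difference was 2.02 ± 0.29 (adjusted p = 0.000389), and 2.64 and 2.74 within the shared scanning days, which lack the overlapping roDom homozygotes. Nrt was at -1.29 to -0.63 in hh1, against -3.80 to -1.77 in the other 9 arrays, and Ank2, which encodes an ankyrin of axons, at -1.18 to -0.36, against -3.37 to -1.54. Neither gene overlapped, with differences of 2.04 ± 0.27 (adjusted p = 0.000136) and 1.90 ± 0.25 (adjusted p = 0.00013). The other probes of Nrt (0.03 to 0.16) and Ank2 (-0.12 to 0.01) did not show the difference. The neuronal zinc-finger gene scrt was at -1.05 to 0.44 in hh1, against -2.90 to -0.74, with some overlap, and was higher by 1.58 ± 0.28 (adjusted p = 0.00299).

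**Figure D2:**
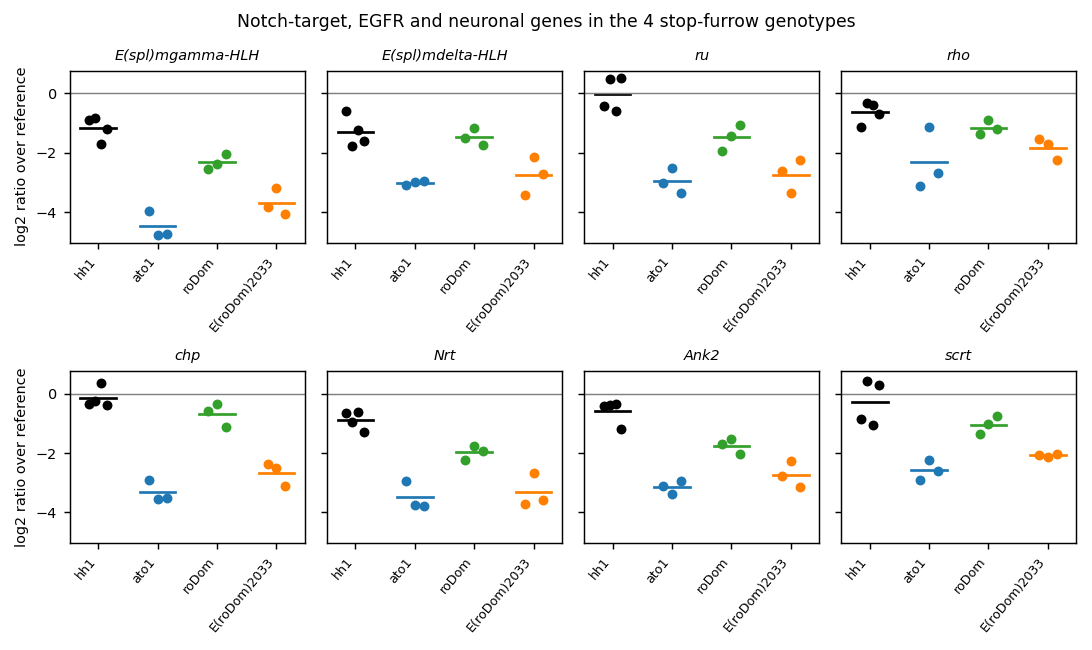
Log2 ratio over the w1118 reference (vertical axis) of 8 genes on each array of hh1 (4 points) and of ato1, roDom homozygotes and E(roDom)2033 homozygotes (3 points each); horizontal bars are group means. The hh1 points of E(spl)mgamma-HLH, ru, Nrt and Ank2 lie above all 9 others, and by group mean the roDom homozygotes are the nearest to hh1 in each panel.

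Further genes passed, all but retn with values below those of chp, Nrt, Ank2 and scrt. The receptor kinase gene sev of R7 was higher in hh1 by 1.22 ± 0.24 (adjusted p = 0.00904), with hh1 at -0.90 to -0.19 and the others at -2.47 to -1.41. Without replicate 2 its adjusted p was 0.0506. The sodium-pump subunit gene nrv3 (1.03, adjusted p = 0.0132) and the Runx gene run (0.91, adjusted p = 0.0282) were higher too. The call of nrv3 ended without replicate 3 (adjusted p = 0.0543) or 4 (adjusted p = 0.0811), and that of run without replicate 2, 3 or 4 (0.72 to 0.97). Of 24 phototransduction genes 2 were higher in hh1 and none lower: Xport-A (1.26) and inaC, the eye protein kinase C (0.99). Of all genes 1.33% were called higher in this comparison. Without replicate 2 or 4 inaC lost its call (0.82 and 0.80). The transcription factor gene retn, at -0.45 to 0.29 in hh1, against -2.94 to -0.72, was higher by 1.98 ± 0.16 (adjusted p = 1.12e-07). Its groups did not overlap. Once scanning day entered as a block, the differences of E(spl)mdelta-HLH (0.68), rho (0.62), aos (0.45), sev (1.02), nrv3 (0.58) and run (0.73) were not called. Those of E(spl)mgamma-HLH, ru, chp, Nrt, Ank2, scrt, retn and Xport-A kept their calls under each of 28 alternatives.

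A difference for the hnRNP gene Hrb87F rested largely on 1 genotype. It was at 0.87, 0.79, 1.23 and 0.42 in hh1, against -0.46 to 0.23 in both homozygous roDom-related genotypes and -4.14 to -2.82 in ato1. The fitted difference from the 3 genotypes together was 2.12 ± 0.17 (adjusted p = 1.05e-07), and against the reference Hrb87F rose by 0.67 ± 0.14 (adjusted p = 0.00636). The last of the 10 named higher genes, Vajk4, was at 0.31 to 1.82 in hh1, against -1.27 to -0.09 (1.63 ± 0.41, adjusted p = 0.0421). Its call was lost without replicate 2, 3 or 4 (1.34 to 1.72) and with the day block (1.73, adjusted p = 0.394).

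Most patterning genes were not called. Of 16 dorsal, anterior and head patterning genes 2 fell against the reference and none rose, with a median of -0.03. Of all genes 2.95% were called lower. The Iroquois factor gene mirr, which marks the dorsal eye, had -1.07, -1.44, -0.85 and -2.15, all below the reference and lowest in replicate 4. The change was -1.67 ± 0.25 (adjusted p = 0.000282), without the dye term -1.38 and no longer called. In the other stop-furrow genotypes mirr ran from -1.45 to 1.26, and the difference was -1.41 ± 0.30 (adjusted p = 0.0126). Without replicate 2 (-1.29, adjusted p = 0.0624) or 4 (-1.46, adjusted p = 0.0522) that call was lost. The homeobox gene en, a regulator of hh in posterior compartments, had -1.39, -1.47, -1.29 and -1.33 and changed by -1.29 ± 0.29 (adjusted p = 0.00879), with another probe at -0.12. Without replicate 4 it was -1.21 (adjusted p = 0.0817), and the other stop-furrow genotypes, at -2.65 to -0.09, gave a difference of -0.02 (adjusted p = 0.989).

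Of 15 retinal determination genes 2 fell against the reference, with a median of -0.04. The phosphatase and coactivator gene eya had -0.92, -0.81, -0.59 and -1.68 and changed by -1.18, and without replicate 4 it had -1.12 (adjusted p = 0.0603) and with the day block -1.07 (adjusted p = 0.163). The Pax gene toe changed by -0.55, with its call lost without replicate 2, 3 or 4 (-0.58 to -0.49) and with the day block (-0.62). Against the other stop-furrow genotypes toe was also lower in hh1 (-0.70), with its call lost without any 1 hh1 array (-0.74 to -0.64) and with the day block (-0.76). Of 16 antennal genes only ss fell (-0.70), lost without replicate 2 or 3 and with the day block (-0.81). Of 32 axon guidance and adhesion genes 2 fell, Fas1 (-0.97, without replicate 4 -0.85 and adjusted p = 0.085) and Lar (-0.88, lost without any 1 hh1 array). Of 30 mitosis genes 2 fell, stg and the securin gene pim (-0.81). Of 35 DNA replication genes 1 rose, RnrS (0.62, lost without replicate 2 or 3 and with the day block). Beside these counts, 2.95% of all genes were called lower and 3.07% higher. None of 26 cell death and JNK genes was called in limma, with 7 at an unadjusted p under 0.05, beside 3258 of all 16492 probes.

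Among the named genes that rose, cuticle-type and secreted proteins had the largest values. Of 19 measured peripodial and cuticle-type genes 6 rose and none fell against the reference, with a median of 0.81. Of all genes 3.07% were called higher. The members of this list were chosen with earlier results of these data known, so the count is a description and not a test of the class. Vajk2 had 4.21, 4.17, 5.21 and 3.38, so every hh1 array was more than 3 log2 units above the reference. Its change was 4.17 ± 0.35 (adjusted p = 1.79e-07), with another probe at 1.37. The neighbouring family member Vajk3 had 2.65, 3.29, 3.66 and 2.49 and changed by 2.94 ± 0.19 (adjusted p = 2.03e-09). The odorant-binding protein gene Obp99a had 2.58, 2.26, 2.87 and 1.36, lowest in replicate 4, and changed by 2.42 ± 0.41 (adjusted p = 0.000916). The chitinase gene Cht5 had 1.09, 2.04, 1.21 and 2.58 and changed by 1.79 ± 0.24 (adjusted p = 8.56e-05). With scanning day as a block Obp99a had 2.88 (adjusted p = 0.0766) and Cht5 1.20 (adjusted p = 0.0538). Vajk1 (0.81) and Idgf6, which encodes a chitinase-like growth factor (1.11), rose as well. The defining peripodial genes Ance (0.81, adjusted p = 0.0989) and Ubx (-0.14) were not called.

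High Vajk2 and Vajk3 were not shown to be particular to hh1. In the other stop-furrow genotypes Vajk2 ran from 1.32 to 4.78 and Vajk3 from 0.52 to 4.75, with differences of 0.89 (adjusted p = 0.383) and 0.17 (adjusted p = 0.821). The low end of both ranges came from roDom homozygotes. Against the mean of all 8 other conditions both were higher in hh1, by 2.41 (adjusted p = 0.00109) and 1.68 (adjusted p = 6.06e-05). In that comparison 265 genes were called (2.29%), 178 higher (1.54%) and 87 lower (0.753%) in hh1, from 321 probes (1.95%). Of this list Cht5 was also higher than in the other stop-furrow genotypes, by 1.17 (adjusted p = 0.0339), a call lost without replicate 2 (1.05) or 4 (0.89) and with the day block (0.87).

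Several of the named genes lay outside these lists. The gene wac, which encodes a subunit of the augmin complex of the spindle, had 2.09, 1.76, 2.71 and 2.24 in hh1, against -0.86 to 0.22 in the other stop-furrow genotypes. Its change was 2.27 ± 0.14 (adjusted p = 1.53e-09) against the reference, 2.48 ± 0.17 (adjusted p = 9.3e-09) against those genotypes and 2.33 (adjusted p = 4.67e-09) against all other conditions. The antiviral gene pst (pastrel) had -2.27, -1.35, -1.96 and -1.999 in hh1, against -1.24 to 0.88, and its change was -1.97 ± 0.13 (adjusted p = 4.64e-09) against the reference. Sbf, a gene of the myotubularin family, had -1.23, -1.80, -0.93 and -2.12 in hh1, against -0.37 to 0.97, with a change of -1.61 ± 0.19 (adjusted p = 1.71e-05). Sbf was as low in Su(roDom)519, at -1.86 to -1.21. Acf, a subunit gene of a chromatin-remodelling complex, had -1.37, -1.32, -1.75 and -1.24 in hh1, against -0.73 to 0.13, with a change of -1.42 ± 0.15 (adjusted p = 6.07e-06). In a fit on the hh1 arrays alone wac, pst, Sbf and Acf were not called against the reference. None of these 4 genes overlapped between hh1 and the other stop-furrow arrays. All 4 were named for a large difference between these same arrays, so this is no separate result. Over all genes, 70 of 11552 (0.606%) lay above and 46 (0.398%) below those arrays without overlap.

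**Figure D3:**
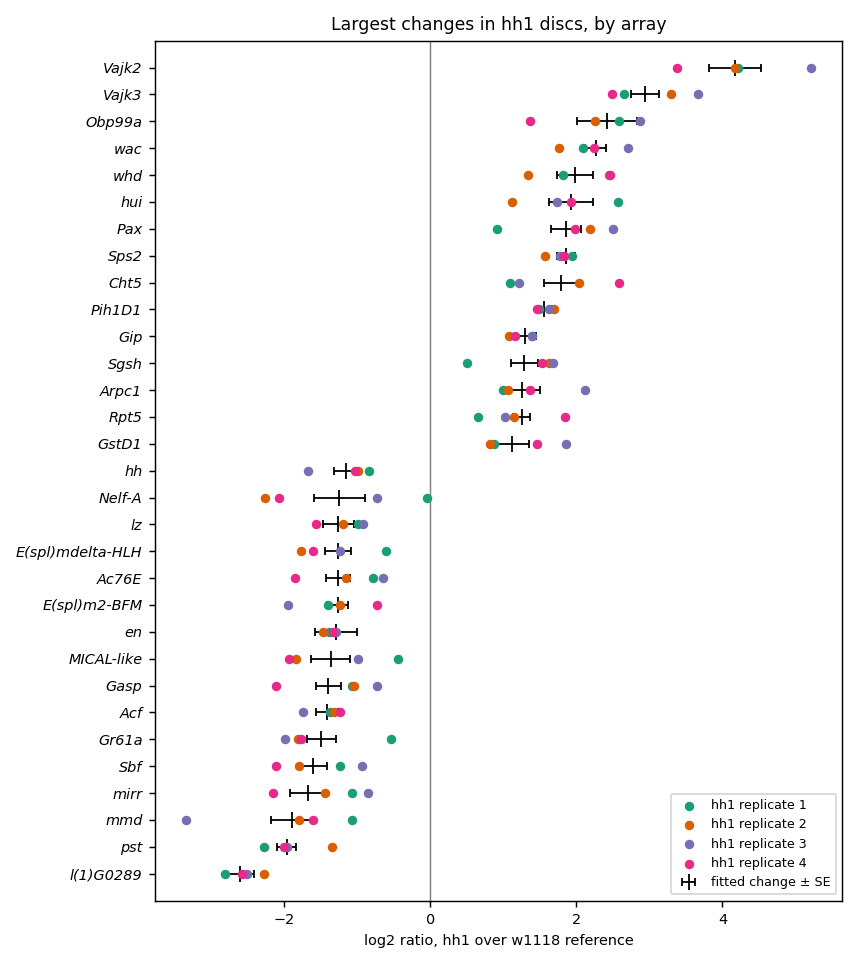
Log2 ratio of hh1 over the w1118 reference (horizontal axis) on each of the 4 hh1 arrays (coloured points) for hh and for the 15 named genes with the largest rise and the 15 with the largest fall; the vertical tick and bar are the fitted, dye-adjusted change ± SE. All 4 points lie on 1 side of 0 for each gene, as the rule for naming them requires, and the 4 arrays of Nelf-A and mmd spread most among the genes that fell.

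The other named genes that rose were whd, a carnitine palmitoyltransferase gene (1.98, other probe -0.03), hui (1.92), Pax, the paxillin gene (1.86, other probes 0.28 to 0.52), Sps2, a selenophosphate synthetase gene (1.86, other probe 0.06), and Pih1D1 (1.56, other probe 0.05). With them came Gip (1.30), the lysosomal sulfatase gene Sgsh (1.29), Arpc1 of the actin-nucleating Arp2/3 complex (1.25), Rpt5, a proteasome ATPase gene (1.25), and the glutathione transferase gene GstD1 (1.12). Without replicate 4 Arpc1 had 1.08 (adjusted p = 0.0634) and GstD1 0.86 (adjusted p = 0.113), and with the day block GstD1 had 1.45 (adjusted p = 0.129). In the difference from the other stop-furrow genotypes hui (0.81), Sps2 (0.13), Arpc1 (-0.56) and GstD1 (0.18) were not called in limma. There whd (1.22), Pax (1.09), Pih1D1 (0.52), Gip (0.74), Sgsh (0.95) and Rpt5 (0.87) were called higher in hh1, which was not examined under the alternatives. For each of these genes the hh1 arrays overlapped the other stop-furrow arrays. The mean of Pih1D1 was 1.57 in hh1 and in E(roDom)2033 homozygotes, 1.37 in ato1 and 0.18 in roDom homozygotes. That of Pax was 1.895 in hh1, 1.74 in E(roDom)2033 homozygotes, 0.94 in roDom homozygotes and -0.35 in ato1. As a family the proteasome did not stand out against the reference, with 2 of 46 genes higher and 1 lower. Cytoplasmic ribosomal protein genes had 6 of 91 higher and 1 lower, and mitochondrial ones 3 of 63 higher and 1 lower. Of all genes 3.07% were called higher and 2.95% lower.

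The other named genes that fell were l(1)G0289 (-2.61), mmd, an ADAM-family gene (-1.89, other probes -0.15 to 0.09), the gustatory receptor gene Gr61a (-1.49), and Gasp, which encodes a chitin-binding protein (-1.40, other probes -1.40 and -1.37). The list went on with MICAL-like (-1.36), the adenylyl cyclase gene Ac76E (-1.27) and Nelf-A, of the complex that pauses RNA polymerase (-1.24, adjusted p = 0.0432). Without replicate 4 MICAL-like had -1.17 (adjusted p = 0.0604) and Nelf-A -0.86 (adjusted p = 0.351), and without replicate 2 Nelf-A had -0.94 (adjusted p = 0.242). The hh1 channel of Gr61a and MICAL-like was above background on 2 of 4 arrays. In the difference from the other stop-furrow genotypes mmd (-0.48), MICAL-like (-0.11), Ac76E (-0.45) and Nelf-A (-0.465) were not called in limma.

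Against the other stop-furrow genotypes the named lower genes were Sbf (-1.99), pst (-1.78), mirr (-1.41), Acf (-1.23), Gr61a (-1.17), l(1)G0289 (-1.14), Gasp (-1.06), the glycosyltransferase gene Ugt302K1 (-1.52), the cytochrome P450 gene Cyp6a17 (-1.25) and hfp, a splicing factor gene (-1.11, other probes 0.05 to 0.15). The hh1 arrays of Ugt302K1 (-1.01 to -0.26) lay below all 9 others (-0.19 to 2.14), while those of Cyp6a17, Gr61a, l(1)G0289, hfp, mirr and Gasp overlapped them. Without replicate 4 the calls of Ugt302K1 (-1.43), Cyp6a17 (-1.12), Gr61a (-1.03), Gasp (-0.89) and hfp (-1.09) were lost. Gr61a (-1.03) and hfp (-0.93) were also lost without replicate 3, hfp without replicate 2 (-1.21), and l(1)G0289 without replicate 1 (-1.03). With the day block the calls of Gr61a (-0.97) and l(1)G0289 (-1.45) were lost. The hh1 channel of Cyp6a17 was above background on 2 of 4 arrays.

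Genes known by CG numbers were outside the rule for naming, and 5 of them are given here, chosen after their values were seen. CG9953, on chromosome arm 3L, had -3.78, -3.28, -4.06 and -3.82 in hh1, against 0.14 to 0.62 in the other stop-furrow genotypes, and no array of another condition was below -0.32. Its change against the reference was -3.75 ± 0.10 (adjusted p = 7.36e-16), and against the other stop-furrow genotypes -4.15 ± 0.12. Its hh1 channel was above background on only 2 of 4 arrays, so these sizes are uncertain. CG9705 had 1.90, 2.22, 1.97 and 2.24 in hh1, against -0.57 to 0.90, and changed by 2.04 ± 0.11. CG7900 had 1.55, 1.60, 1.71 and 2.01, against -0.18 to 1.15, and changed by 1.76 ± 0.08, with the reference channel above background on 2 of 4 arrays. In roX63 it was at 0.96 to 1.77, overlapping hh1. CG18294 had -1.61, -2.29, -1.37 and -2.88 in hh1, against -0.62 to 1.13, and CG12519 had -0.79, -2.22, -1.57 and -2.67, against -0.63 to 1.13. Both were as low in Su(roDom)519, CG18294 at -2.25 to -1.85 and CG12519 at -1.95 to -1.70. None of these 5 genes overlapped between hh1 and the other stop-furrow genotypes, but given how they were chosen this is no separate result. Over all genes, 0.606% lay above and 0.398% below those arrays without overlap. Other CG-numbered genes with large changes did overlap, such as CG14275, at 1.77 to 2.56 in hh1 and up to 2.23 in E(roDom)2033 homozygotes.

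Transcripts of other cell types differed between the hh1 arrays. None of 15 hemocyte genes was called in limma, with 5 at an unadjusted p under 0.05, beside 3258 of all 16492 probes. However, Hml, which encodes hemolectin, had 0.02, 3.12, 3.01 and -0.27, and the phagocytic receptor gene eater had 0.60, 3.22, 4.15 and -0.20. Among the hh1 arrays both were high in replicates 2 and 3 only, and the scavenger receptor gene crq was low in the same pair (0.57, -2.58, -2.32 and -0.29). Over the 23 arrays of the other conditions Hml reached 2.86 and eater 4.23, with medians of 0.02 and -0.02. High values of these genes were thus not shown to be particular to hh1, while crq went no lower than -1.05 there. The prophenoloxidase gene PPO2 was high in replicate 3 alone (3.50). The list median was -0.12, 0.41, 1.36 and -0.04 in replicates 1 to 4. Of 15 members 10 were at or above 1 in replicate 3, 3 in replicate 2 and none in replicates 1 and 4. Replicates 2 and 3 are called the pair high in hemocyte transcripts, although in replicate 2 most members were not high. Without replicates 2 and 3, an alternative chosen after the data were seen, 234 probes were called against the reference, 204 of them among the 884. Of the 31 named genes 24 kept their call. Those lost were Arpc1, GstD1, MICAL-like, Nelf-A, Obp99a, en and mmd, with Obp99a at 1.97 (adjusted p = 0.104), en at -1.36 (adjusted p = 0.131) and mmd at -1.34 (adjusted p = 0.0582). Over all 73 called genes examined against the reference 38 kept their call. Among those lost were E(spl)mgamma-HLH (-1.06, adjusted p = 0.0966), E(spl)mbeta-HLH (0.85, adjusted p = 0.0556), S (-0.39), Apc (-1.01), MsrA (0.58), eya (-1.30), neur (-0.88) and pnt (-1.02). In the difference from the other stop-furrow genotypes 13 of 20 named genes kept their call without that pair, among them E(spl)mgamma-HLH, ru, chp, Nrt and Ank2. Of all 40 called genes examined there 21 kept it, and those lost included sev (1.13), rho (0.88), aos (0.85), run (0.56), nrv3 (1.01) and inaC (0.93). The part of the hemocyte transcripts in the other results was not tested.

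Some salivary glue transcripts were low on replicates 2, 3 and 4. The list median was -0.06, -0.20, -2.01 and -1.54 in replicates 1 to 4, with 0, 4, 6 and 5 of 10 members at or below -1. Sgs7 had -0.23, -2.58, -4.61 and -5.03, and Sgs8 had 0.84, -2.45, -3.80 and -4.49. Low values were not shown to be particular to hh1. Over the 23 arrays of the other conditions Sgs7 had a median of -3.44 and Sgs8 of -2.64, and replicate 1 lay well above both medians. No glue gene was called in limma in the difference from the other stop-furrow genotypes. At an unadjusted p under 0.05 were 0 of them, beside 2109 of all 16492 probes. Of 10 measured glue and related genes only Sgs5 was called (-2.77 ± 0.80, adjusted p = 0.0481), a call lost without replicate 2, 3 or 4 (-2.92 to -1.90) and at -0.05 (adjusted p = 0.99) with the day block, and the list median was -1.02. Glue genes are transcribed in salivary glands and not in discs, and their part in the other results was not tested. Of 14 fat body and 18 muscle genes none was called in limma, with 0 and 2 at an unadjusted p under 0.05, and no fat body gene reached a 2-fold change on any hh1 array. Of 15 glial genes 1 fell, loco (-0.72, lost without replicate 3 or 4 and with the day block), and wrapper, an immunoglobulin-family gene of glia, was lower than in the other stop-furrow genotypes (-0.64, lost without replicate 3 or 4 and with the day block). Of 13 heat shock genes 1 rose, Hsp67Ba (0.74, lost without replicate 2 or 4 and with the day block), while Hsp83, with -0.02, 2.30, -0.09 and 2.53, was high on the arrays of replicates 2 and 4, which were scanned on the same day. Hsp67Bc was higher in hh1 than in the other stop-furrow genotypes, by 1.30 (adjusted p = 0.00592), and without replicate 4 by 1.11 (adjusted p = 0.0617). With the day block its difference was 1.20 (adjusted p = 0.232). Of 20 ecdysone-response genes 1 rose (MsrA, 0.62) and 1 fell (br, -0.97, lost without replicate 2 or 4). Beside the counts of called genes in these lists, 2.95% of all genes were called lower and 3.07% higher against the reference. In the difference from the other stop-furrow genotypes 0.762% were called lower and 1.33% higher. In limma neither 19 immune peptide genes nor 8 genes of sex and dosage held a call, with 0 and 1 at an unadjusted p under 0.05. Of all 16492 probes 3258 were at that level against the reference.

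**Figure D4:**
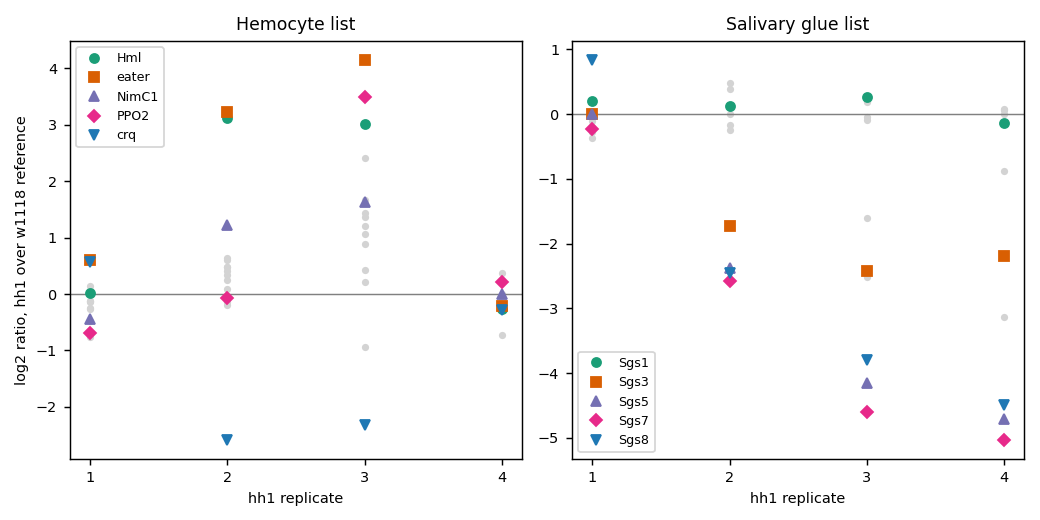
Log2 ratio of hh1 over the w1118 reference (vertical axis) for the members of the hemocyte list (left) and the salivary glue list (right) on hh1 replicates 1 to 4 (horizontal axis); coloured symbols are named members and grey points the other members. Hml and eater are above 3 on replicates 2 and 3 only, and Sgs5, Sgs7 and Sgs8 are below -2 on replicates 2, 3 and 4.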

How the data were processed

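Test and reference RNA were hybridised together to arrays of PCR products. Per the file headers, the scans were quantified with GenePix Pro 3.0, and the deposited files give pixel intensity and local background of each spot in both dyes, the percent of saturated pixels and a quality score. The deposited value table holds the authors' log2 ratio of reference over test, shifted by a constant per array. Its column for hh1 replicate 2 equals that of Su(roDom)519 replicate 3 with the sign turned in 10353 of 10353 values, so the table served only as an alternative, without that column.

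Spots scored -75 or lower were left out, background was corrected by normexp (offset 50), and ratios were loess-normalised within arrays, turned to test over reference by the labelled dye and averaged per probe. A probe was above background where its foreground exceeded background by 2 background SDs. limma 3.58.1 in R 4.3.3 fitted all 27 arrays with 9 group means and a dye term, tested two-sided. The script was tested on simulated data. Precision is limited by how few arrays each group has. Of 16498 probes 12813 were named by locus tag, 34 by symbol and 2715 by synonym through RefSeq (Release 6), and 936 stayed unnamed.

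Groups follow the titles. The header of hh1 replicate 3 names its sample hha. Replicates 2 and 3 of the E(roDom)2033 homozygotes carry a heterozygous note elsewhere in their labels, and 1 roDom homozygote array (replicate 2) has a dye order in its header opposite to its labels, which were followed. Named genes are hh, the 15 highest and 15 lowest called changes against the reference, and the 10 highest and 10 lowest against the other stop-furrow genotypes. They need a symbol, signal above background in a channel on 3 of 4 hh1 arrays and, against the reference, 1 sign on all 4. From lists, called members are named where 5 or fewer, and otherwise up to 4. The members and lists were chosen with earlier results of these data known.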

Additional observations from a re-analysis of the deposited data

Results flagged for a closer look

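In the 154 named or listed genes examined, 7 had 1 hh1 array far from the other 3. Chance alone sets an array apart in about 1 of 20 such groups. Replicate 1 was the odd array for Sgsh (0.51), Gr61a (-0.54), Wnt6 (-0.03) and br (-0.41), each nearer to 0 than the other arrays or close to it. Replicate 4 was the odd one for Ank2 (-1.18), phyl (-1.60) and ey (-1.39), each the lowest.

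The 20 named genes that differed between hh1 and the other stop-furrow genotypes by the test of that difference were wac (2.48), ru (2.38), E(spl)mgamma-HLH (2.36), Hrb87F (2.12), Nrt (2.04), chp (2.02), retn (1.98), Ank2 (1.90), Vajk4 (1.63) and scrt (1.58), higher in hh1. Lower in hh1 were Sbf (-1.99), pst (-1.78), Ugt302K1 (-1.52), mirr (-1.41), Cyp6a17 (-1.25), Acf (-1.23), Gr61a (-1.17), l(1)G0289 (-1.14), hfp (-1.11) and Gasp (-1.06).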

How the results depend on the processing

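Among the 73 genes called against the reference and the 40 called against the other stop-furrow genotypes that were examined, no change reversed. The other called probes were not examined for reversal. Against the reference 884 probes were called, with 92 at a log2 change of at least 1, 23 in a fit on the hh1 arrays alone, 372 in the authors' deposited value table, 234 without the pair of arrays high in hemocyte transcripts, and 429 to 1091 when 1 hh1 array was left out. For hh1 minus the other stop-furrow genotypes 295 were called, with 78 at a log2 change of at least 1, 92 in a fit on only the 4 groups, 181 in the value table, 118 without the hemocyte-high pair and 139 to 359 without 1 array. For hh1 minus the mean of the other 8 conditions 321 were called, with 58 at a log2 change of at least 1, 147 in the value table, 498 in the 7th array series alone, 213 with scanning day as a random block, 115 without the hemocyte-high pair and 131 to 378 without 1 hh1 array. In the 3 comparisons 51.4%, 64.4% and 65.1% of called probes were higher, and with scanning day as a fixed block 38.3% (747 probes, 279 shared with the first set), 39.1% (261, 99 shared) and 34.5% (284, 49 shared). The split moved to 80.1% in the value table and 77.1% without the hemocyte-high pair in the second comparison, and to 41.3% at a log2 change of at least 1 in the first. The cause of these shifts was not tested. The added log2 limit can only lower the number of calls, and the value table has fewer probes (5616 tested). Of 73 called genes examined against the reference, 10 kept their call under every alternative other than the added log2 limit, and of 40 against the other stop-furrow genotypes 18 did. In the fit on the hh1 arrays alone 14 of the 73 kept their call, and 9 of the 31 named genes among them. No paired analysis was possible because the labels carry no replicate numbers shared between groups. Replicate 1, with the fewest probes above background, limits what dim probes can show.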

Other observations

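Called genes lay on all major chromosome arms. Against the reference 3.97% of the tested genes on X were called, 5.88% on 2L, 7.19% on 2R, 6.58% on 3L and 6.21% on 3R. In the difference from the other stop-furrow genotypes the share was 1.08% on X, 1.24% on 2L, 2.09% on 2R, 3.07% on 3L and 2.53% on 3R. These shares are descriptions, with no test between arms.

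In the deposited value table the column of hh1 replicate 2 correlated with that array's own scanner ratios at r = 0.14 across probes, while those of replicates 1, 3 and 4 correlated with theirs at r = 0.89, 0.99 and 0.99. The values of that column equal those of Su(roDom)519 replicate 3 with the sign turned.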
